A study of Mus musculus with 4 samples.

Results

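Integrins are cell surface receptors made of 1 α and 1 β subunit, by which cells hold on to the extracellular matrix or to each other. The genes examined were the 30 integrin subunits and cell adhesion ligands listed by symbol, 26 integrin genes and the ligands Icam1, Icam2, Vcam1 and Madcam1, all of which were found among the 24532 genes of the deposited table. Within them, 4 integrins through which chondrocytes bind matrix (Itga1, Itga10, Itga5 and Itgb1, the matrix set) were contrasted with 4 integrins of leukocytes (Itgam, Itgal, Itgax and Itgb2, the leukocyte set).

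Chondrocytes use β1 integrins to bind collagen II and fibronectin, and α10 paired with β1 is the collagen receptor typical of cartilage. Leukocytes use integrins with the β2 subunit to stop on endothelium, to crawl into tissue and to take up opsonized debris, and their counter-receptors are ICAMs. VCAM1 is the counter-receptor of integrins that contain α4.

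RNA sequencing was done on knee cartilage of male wild type C57BL/6 mice of 2 ages, each with a sham and an injured group, to compare the early response to injury between the ages. Young mice were 3 weeks old. The age of adult mice is 10 weeks in the methods, and 12 and 14 weeks in the sample labels. In the methods the injury was a full-thickness cut into the groove of the left femur in which the patella glides, whereas the labels name DMM surgery. Samples are labelled day 3, except the adult sham, which is labelled as days 3 to 14. Each group is 1 library from a pool of 5 uninjured or 10 injured mice, so that no value has a replicate check and neither error nor p-value can be given. The labels give the cell type as chondrocyte, but the libraries also held RNA of other cells. Of 8 chondrocyte markers, Matn3 was at 392 and 356 FPKM in the young and 2.30 and 1.48 FPKM in the adult libraries. The lowest value of the other markers was 25.4 FPKM, of Sox9 in young injured cartilage, and Col2a1 was between 3173 and 9349 FPKM. The summed FPKM of 8 macrophage markers was 179, 1752, 287 and 1508 in the order sham and injured of young, then sham and injured of adult mice. This sequence of libraries is called library order below. In such bulk tissue, fewer cells of a type and less RNA per cell cannot be told apart.

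Values are FPKM, fragment counts divided by transcript length and by the mapped fragments of the library, so that levels can be compared between genes per length. Changes are log2 ratios of FPKM + 1 between 2 libraries, which understate the change of genes with low values, and 2-fold on that scale was the least difference taken as a change. Read from the steps of the lowest values, the libraries held about 26300000, 26100000, 30800000 and 25700000 fragments in library order, if 1 step is 1 fragment. On that reading Itgax at 0.326 FPKM in young sham cartilage was about 35 fragments and Itgb1 at 122.6 FPKM about 12310.

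The chromosome 7 genes Itgam (128062640 to 128118491) and Itgax (128129526 to 128150657, GRCm38.p6, the assembly of mm10) lie beside each other and next to Itgad (128173933 to 128205504), and Itgal lies on the same chromosome from 127296139 to 127335137. Because Itgam and Itgax moved together after injury while Itga10 and Itgb1 stayed within 2-fold, the promoters of these 4 genes are shown, each from 250 bases before to 50 bases after a RefSeq start, on the plus strand. Capitals mark GAGGAA, a form of the site bound by the myeloid factor PU.1, or its reverse complement TTCCTC. Other forms of the site were not searched.
Itgam: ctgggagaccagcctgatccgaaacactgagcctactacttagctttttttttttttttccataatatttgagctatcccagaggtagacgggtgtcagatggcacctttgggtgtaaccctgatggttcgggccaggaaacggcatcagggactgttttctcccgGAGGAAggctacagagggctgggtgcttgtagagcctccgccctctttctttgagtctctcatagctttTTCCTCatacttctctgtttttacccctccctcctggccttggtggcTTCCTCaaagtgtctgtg
Itgax: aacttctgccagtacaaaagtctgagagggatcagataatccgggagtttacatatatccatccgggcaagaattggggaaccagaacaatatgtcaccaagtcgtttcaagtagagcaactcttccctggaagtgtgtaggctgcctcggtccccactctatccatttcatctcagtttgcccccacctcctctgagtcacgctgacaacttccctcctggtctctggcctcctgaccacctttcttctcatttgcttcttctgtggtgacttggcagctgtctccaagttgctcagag
Itga10: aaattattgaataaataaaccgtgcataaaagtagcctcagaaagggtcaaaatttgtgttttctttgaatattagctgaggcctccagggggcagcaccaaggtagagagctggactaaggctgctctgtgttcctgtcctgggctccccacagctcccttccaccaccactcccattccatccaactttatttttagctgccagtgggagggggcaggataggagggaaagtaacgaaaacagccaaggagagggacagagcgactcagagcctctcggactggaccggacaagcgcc
Itgb1: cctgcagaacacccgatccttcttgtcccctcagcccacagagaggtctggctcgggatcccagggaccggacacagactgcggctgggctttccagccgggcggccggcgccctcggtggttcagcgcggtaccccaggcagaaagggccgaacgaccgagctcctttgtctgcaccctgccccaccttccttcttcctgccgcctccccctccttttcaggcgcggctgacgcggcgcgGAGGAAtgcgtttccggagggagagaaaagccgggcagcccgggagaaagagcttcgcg
The Itgam window (chr7:128062390-128062689) held the motif 3 times, starting 84 and 15 bases before the start and at base 33 after it. The Itgax window (chr7:128129300-128129599) and the Itga10 window (chr3:96645334-96645633) held none, and the Itgb1 window (chr8:128685404-128685703) held 1, starting 9 bases before the start. Among all 32851 promoters of the table, 28.3% held the motif, against 9 of the 22 promoters of the members. Of the 30 members, 20 matched an entry. The others were Itga6, Itga7, Itgad, Itgae, Itgal, Itgb2, Itgb3, Itgb4, Icam2 and Vcam1. Any role of PU.1 in the values of the members was not tested.

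The 4 leukocyte integrins rose after injury at both ages, and none of the 4 matrix integrins changed by 2-fold at either age. Itgb2, the β subunit that the leukocyte integrins share, was at 6.68 FPKM in young sham and 50.4 FPKM in young injured cartilage, and the adult pair was at 7.59 and 40.7 FPKM. Both injured libraries were thus above both shams, with a log2 ratio of 2.74 for young and 2.28 for adult mice. Itgam, the α subunit of the complement receptor CR3 of macrophages and neutrophils, was at 3.82 and 31.3 FPKM in young sham and injured cartilage and at 2.79 and 19.4 FPKM in adult cartilage. Its log2 ratios were 2.74 and 2.43. Itgax, the α subunit known as CD11c of dendritic cells and macrophages, rose too, with FPKM of 0.326, 2.67, 0.217 and 2.66 in library order. As the added 1 FPKM weighs on such low values, its log2 ratios of 1.47 and 1.59 stand for an 8.18-fold and a 12.3-fold difference in FPKM. Itgal, the α subunit of the ICAM receptor LFA-1, was at 1.54 and 4.52 FPKM in young and 0.570 and 2.94 FPKM in adult cartilage, with log2 ratios of 1.12 and 1.33. After quantile normalization the young value of Itgal was 0.997, just under 2-fold.

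**Figure D1:**
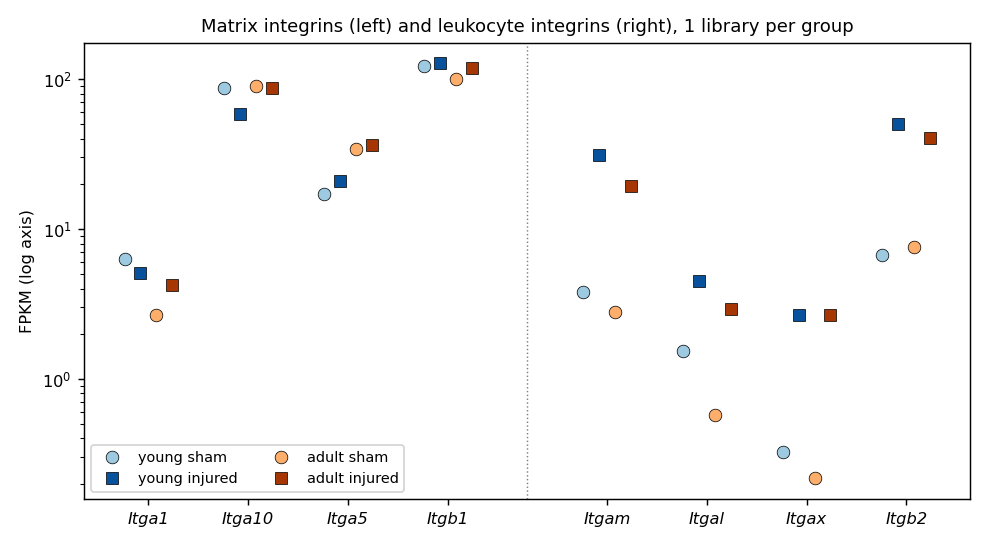
FPKM on a log axis of the matrix set and the leukocyte set in the 4 libraries, 1 point per library with circles for sham and squares for injured cartilage. The leukocyte integrins were higher in both injured than in both sham libraries, for example Itgb2 at 50.4 and 40.7 against 6.68 and 7.59 FPKM, while Itgb1 stayed between 100.04 and 127 FPKM.

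The matrix set moved little by comparison. Itgb1, the β subunit that pairs with most matrix-binding α subunits, had FPKM of 123, 127, 100.04 and 118 in library order. Its log2 ratio in young mice, 0.05, turned to −0.06 on the TPM scale. Itga10 had FPKM of 87.6, 58.8, 89.8 and 87.0, so that the young injured library was the lowest, with a log2 ratio of −0.57 to its sham. Itga5, the fibronectin receptor α subunit, was at 17.2, 20.8, 34.1 and 36.3 FPKM, and both adult libraries were above both young ones. Itga1, a receptor subunit for collagens, was at 6.33, 5.06, 2.65 and 4.26 FPKM. It was below its sham in young mice, at a log2 ratio of −0.28, and above it in adult mice, at 0.53. The directions of Itgb1, Itga5 and Itga10 after injury in adult cartilage depended on how the libraries were scaled, with log2 ratios of 0.24, 0.09 and −0.05 as deposited and −0.10, −0.24 and −0.38 after median-of-ratios scaling, and Itga10 turned to 0.05 on the TPM scale. Median-of-ratios scaling removes the general rise of the adult injured over the adult sham library, a median log2 ratio of 0.23 over the 10891 genes that reached 1 FPKM in every library.

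The median log2 ratio of the leukocyte set was 2.1 in young and 1.93 in adult mice, and that of the matrix set was −0.11 and 0.16, where the adult value of 0.16 turned to −0.17 after median-of-ratios scaling. The medians of all 18181 genes above 0 were 0.00 and 0.14. The leukocyte median exceeded the matrix median by 2.22 in young and 1.77 in adult mice, and after median-of-ratios scaling by 2.17 and 1.91. With 4 genes in each set and 1 library in each group, these are descriptions and the difference was not tested.

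A ratio within a library needs no scaling between libraries. The summed FPKM of the leukocyte set over that of the matrix set was 0.0529 in the young sham and 0.419 in the young injured library, and the adult values were 0.0493 and 0.267. The shams were close to each other, and the ratio was 7.92-fold higher after injury in young and 5.43-fold higher in adult mice. Most of that came from the numerator, which was 12.4, 88.9, 11.2 and 65.7 FPKM in library order. The matrix sum stayed between 212 and 246 FPKM in all 4 libraries.

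**Figure D2:**
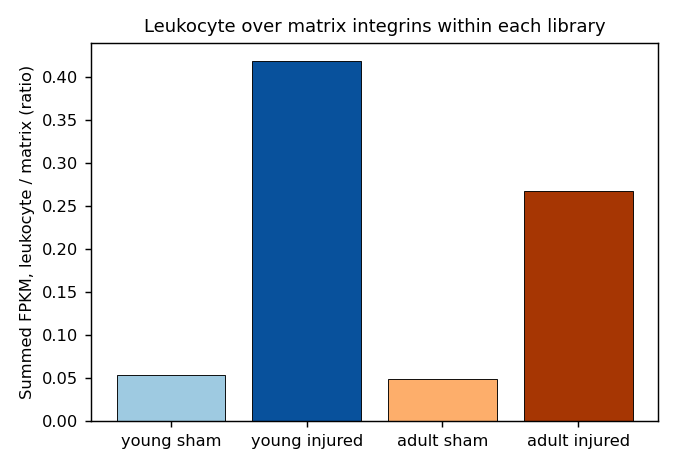
Summed FPKM of the leukocyte set divided by that of the matrix set within each library, 1 bar per library. Both shams lay near 0.05 and the injured libraries at 0.419 in young and 0.267 in adult mice.

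Lists of markers of other cells differed in how far they rose after injury. Over all genes, 4.57% in young and 6.9% in adult mice were at least 2-fold higher. Of the 8 macrophage markers, 7 were at least 2-fold higher after injury at both ages, and their sum was 9.77-fold higher in young and 5.26-fold higher in adult mice. Of 8 neutrophil markers, 3 and 1 were, and their sum was 2.05-fold and 1.20-fold higher. Both cell types carry Itgam and Itgb2. The T and NK cell markers, whose cells carry Itgal, summed to 1.45, 2.84, 1.31 and 6.03 FPKM in library order, with Cd3g listed at 0 in the young sham and Cd3e in the adult sham library. Of the 7 found, 0 in young and 1 in adult mice were at least 2-fold higher. Of 6 B cell markers, 0 and 1 were, and their sum was 1.44-fold and 1.65-fold higher. The 6 dendritic cell markers, of cells that carry Itgax, summed to 6.86, 7.81, 5.07 and 6.44 FPKM, with Xcr1 and Clec9a listed at 0 in the adult sham library. Most of that sum was Zbtb46, at 5.88, 5.37, 4.28 and 3.17 FPKM, and the other 5 were higher in the injured library at both ages, with Cd209a at least 2-fold higher in adult mice at a log2 ratio of 1.03. The part of these cells in the rise of the leukocyte integrins was not tested.

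Over all members, 7 of the 29 above 0 were at least 2-fold higher in young injured than in young sham cartilage (24.1%, against 4.57% of all genes tested), and 1 was at least 2-fold lower (1.27% of all genes). In adult cartilage 9 of the 29 were higher (31%, against 6.9%) and none was lower (1.46%). The 6 genes raised at both ages were Itgal, Itgam, Itgax, Itgb2, Icam2 and Vcam1, which is 85.7% of the genes raised in young and 66.7% of those raised in adult cartilage. The overlap between the ages was not calculated over all genes, so that these shares have no comparison. With 1 FPKM added, Icam1 passed 2-fold in young mice alone, and Itga6, Itgb3 and Itgb7 in adult mice alone. With 0.1 FPKM added, Itgb3 and Itgb7 also passed in young mice, at log2 ratios of 1.01 and 1.18, and Itga2 and Itga4 in adult mice, at 1.41 and 1.60, which made 9 members higher in young and 11 in adult mice. A difference between the ages cannot be tested with 1 library in each group. In adult cartilage 7 members were at least 2-fold higher after median-of-ratios scaling and 6 after quantile normalization. Itga6 and Itgb7 were under 2-fold under both scalings, and Vcam1 was under 2-fold after quantile normalization. Shares over all genes were calculated only as deposited with 1 FPKM added, so that the counts under other settings have none beside them.

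**Figure D3:**
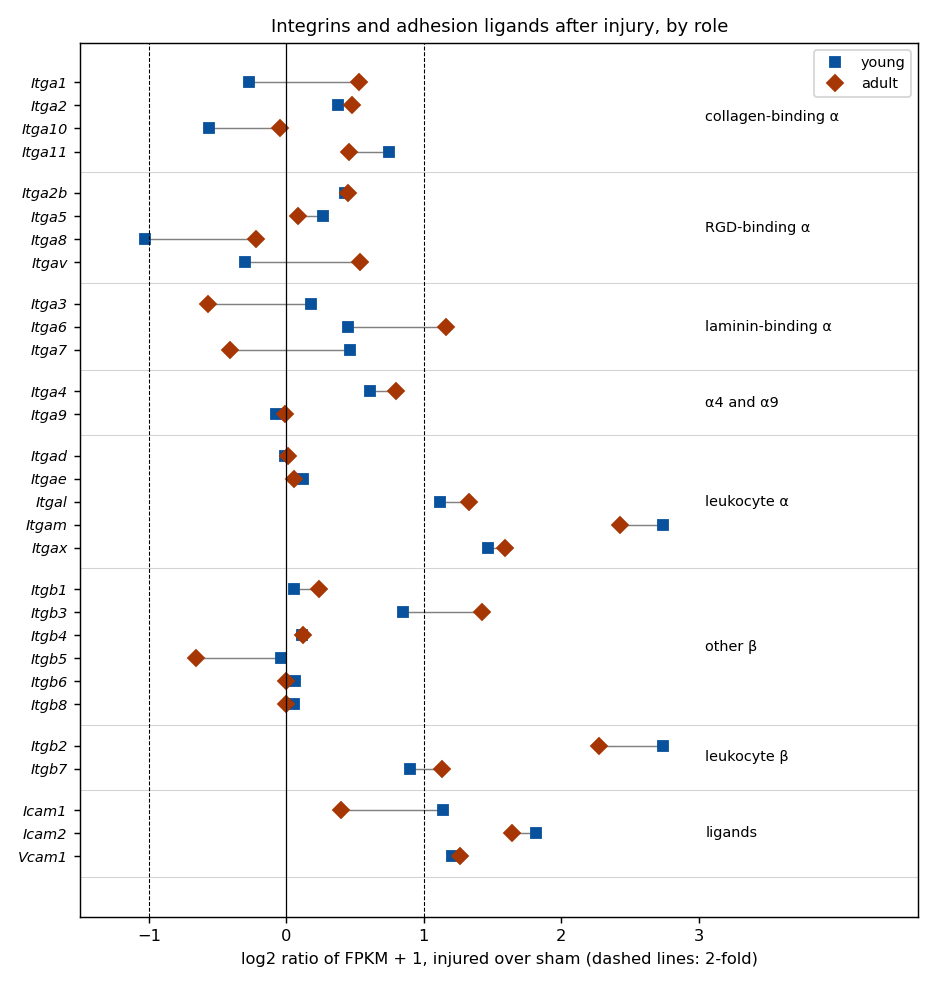
Log2 ratios of FPKM + 1 of injured over sham cartilage for the 29 members above 0, grouped by role, with squares for young and diamonds for adult mice and dashed lines at 2-fold. The leukocyte set, Icam2 and Vcam1 lie beyond 2-fold at both ages, up to 2.74 for Itgam in young mice, whereas collagen-binding and RGD-binding α subunits lie between −1.03 and 0.75.

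Among the α subunits that bind collagen, Itga10 was by far the most abundant. It made up 90.4% of the summed FPKM of Itga1, Itga2, Itga10 and Itga11 in the young sham and 84.4% in the young injured library, and 89.7% and 84.8% in the adult pair. Its share was the lower in the injured library at both ages. Itga11, which is known from fibroblasts and mesenchymal cells, had a larger share after injury, from 2.53% to 6.86% in young and from 7.47% to 10.4% in adult cartilage. Its level was 2.45, 4.78, 7.48 and 10.6 FPKM in library order, and the log2 ratios after injury, 0.75 and 0.46, were under 2-fold. Itga2, known from platelets and epithelium, was at 0.554, 1.01, 0.181 and 0.646 FPKM in library order. In FPKM alone its adult injured library was 3.57-fold above the adult sham, and it was 3.06-fold lower in adult than in young sham cartilage, and both differences passed 2-fold with 0.1 FPKM added but not with 1 FPKM.

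Of the α subunits that bind the RGD motif of fibronectin and vitronectin, Itga8 was the only member at least 2-fold lower after injury. It was at 2.15 FPKM in young sham and 0.545 in young injured cartilage, a log2 ratio of −1.03, and at 0.489 and 0.274 FPKM in adult cartilage, a log2 ratio of −0.22. The young value was −0.99, just under 2-fold, after median-of-ratios scaling. The young sham library thus stood above the other three. Itgav, which pairs with several β subunits, had FPKM of 13.8, 11, 10.2 and 15.2 in library order, below its sham in young and above it in adult mice. Itga2b, the fibrinogen receptor α subunit of platelets, was between 1.49 and 2.55 FPKM, with log2 ratios of 0.42 and 0.45. Of the 6 platelet and megakaryocyte markers, 4 were at least 2-fold higher in the young injured library and 1 in the adult one. Over all genes this was 4.57% and 6.9%. The part of platelets and megakaryocytes in the Itga2b values was not tested.

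The laminin-binding α subunits differed from each other. Itga6 was at 6.00 and 8.57 FPKM in young sham and injured cartilage and at 3.04 and 8.04 FPKM in adult cartilage, with log2 ratios of 0.45 and 1.16. The adult sham was the lowest of the 4 and the injured libraries were close to each other. Itga3 was at 1.07 and 1.35 FPKM in young and 5.76 and 3.57 FPKM in adult sham and injured cartilage. Itga7, the laminin receptor of skeletal muscle, was at 0.863 and 1.57 FPKM in young and 5.42 and 3.82 FPKM in adult cartilage. Itga7 was thus above its sham in young and below it in adult mice, with log2 ratios of 0.46 and −0.41. Of 6 skeletal muscle markers, all were detected, and their sum was 482, 482, 1113 and 329 FPKM in library order. The part of muscle in the Itga7 values was not tested.

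Itga4 and Itga9 bind VCAM1 and matrix proteins such as tenascin and osteopontin. Itga4, which leukocytes use to bind VCAM1, was at 1.42 and 2.68 FPKM in young and 0.408 and 1.45 FPKM in adult sham and injured cartilage. Its log2 ratios of 0.61 and 0.80 were under 2-fold, where FPKM alone differed 1.89-fold and 3.54-fold, and on the TPM scale the adult value passed 2-fold. Itga9 lay between 1.84 and 2.48 FPKM in all 4 libraries.

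The remaining leukocyte subunits behaved unlike the leukocyte set in part. Itgad, an α subunit of macrophages in other tissues, lay between 0.139 and 0.159 FPKM in all 4 libraries, about 15 to 17 fragments each, so that a small change could not have been seen. It shares 11.3% of its 31-base words with Itgax, whose own share was 10.7%, and reads of these stretches cannot be assigned with certainty. Itgam shares 67.2% of its words with the GENCODE entry Gm49368, and Itga10 shares 31.8% with Gm42957. Neither entry is among the genes of the deposited table, and how reads of these stretches were assigned is not given in the sources used here. Itgae, the E-cadherin receptor subunit of tissue T cells, was listed at 0 in young sham and did not exceed 0.0894 FPKM elsewhere. Itgb7, which pairs with α4 or αE on lymphocytes, was at 1.85 and 4.33 FPKM in young and 2.71 and 7.13 FPKM in adult sham and injured cartilage. Both injured libraries were above both shams, and the log2 ratios were 0.90 and 1.13.

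The α subunits that pair with Itgb2 kept a similar order in the 4 libraries. Itgam made up 65.3% of their summed FPKM in the young sham and 81.0% in the young injured library, and 75.1% and 77.2% in the adult pair. Itgal took 26.4%, 11.7%, 15.3% and 11.7%, and Itgax took 5.58%, 6.91%, 5.85% and 10.6%. The young sham library therefore had the largest share of Itgal, and the adult injured library the largest share of Itgax. Itgb2 itself was 1.14, 1.31, 2.04 and 1.62 times the sum of its α subunits in library order.

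Among the β subunits other than Itgb2 and Itgb7, Itgb3 passed 2-fold after injury in adult mice, Itgb5 passed it between the ages, and Itgb1, Itgb4, Itgb6 and Itgb8 did not pass it in any of the comparisons with 1 FPKM added. Itgb3, the β subunit of the osteoclast vitronectin receptor and of the platelet fibrinogen receptor, was at 3.47 and 7.07 FPKM in young and 3.70 and 11.6 FPKM in adult sham and injured cartilage. This was a log2 ratio of 0.85 for young and 1.42 for adult mice. The summed FPKM of 6 osteoclast markers was 2.56-fold higher after injury in young and 3.74-fold higher in adult mice, and its part in the Itgb3 values was not tested. Itgb5, a partner of αv, was at 51.5 and 50.02 FPKM in young and 172 and 108 FPKM in adult sham and injured cartilage. In adult sham cartilage Itgb5 was the most abundant of all members, above Itgb1, and in the other 3 libraries Itgb1 was. Itgb8, another partner of αv, was at 0.319, 0.375, 0.105 and 0.101 FPKM in library order, so that both adult libraries were below both young ones. In FPKM alone it was 3.046-fold lower in adult than in young sham and 3.71-fold lower in adult than in young injured cartilage, and with 0.1 FPKM added both differences passed 2-fold. Itgb4 and Itgb6 also stayed under 1 FPKM in all libraries, where Itgb4 and Itgb6 are known from epithelium. Of 6 epithelial markers, Krt5 and Krt14 were listed at 0 in every library and none exceeded 1 FPKM.

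As a share of the 8 β subunits, Itgb2 went from 3.58% to 21.0% of the summed FPKM after injury in young and from 2.65% to 14.2% in adult cartilage. Itgb1 made up 65.6%, 53.0%, 34.98% and 41.3% in library order. Itgb5 made up 27.6%, 20.8%, 60.01% and 37.8%, the largest share in adult sham cartilage.

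Of the ligands, Icam2 and Vcam1 rose at both ages and Icam1 in young mice. Vcam1, which endothelium and stromal cells display, was at 1.78 and 5.41 FPKM in young and 2.34 and 7.01 FPKM in adult sham and injured cartilage, log2 ratios of 1.20 and 1.26. Icam2, an ICAM of endothelium, platelets and leukocytes, was at 1.07 and 6.30 FPKM in young and 0.672 and 4.21 FPKM in the adult pair, log2 ratios of 1.82 and 1.64. For both genes the injured libraries were above both shams. Icam1, an ICAM that inflammatory cytokines induce on many cells, was lowest in young sham cartilage, at 10.2 FPKM, with the other libraries at 23.6, 23.2 and 30.9 FPKM. It rose in young mice by a log2 ratio of 1.14, while the adult value of 0.40 started from a sham that was already at 23.2 FPKM. Madcam1, the ligand of α4β7 on gut vessels, was listed at 0 in all 4 libraries. Of 6 endothelial markers, 5 were at least 2-fold higher at both ages, against 4.57% and 6.9% of all genes. The sum of these markers was 4.84-fold higher in young and 4.19-fold higher in adult mice. The part of endothelium in the Vcam1 and Icam2 values was not tested.

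Between the sham libraries of the ages, members of several roles differed. The adult sham is labelled as days 3 to 14 and the young sham as day 3, so that age and day cannot be told apart here. At least 2-fold higher in adult than in young sham cartilage were 5 of 29 members, Itga3, Itga7, Itga11, Itgb5 and Icam1 (17.2%, against 2.66% of all genes tested). Their log2 ratios were 1.71, 1.78, 1.298, 1.72 and 1.12. At least 2-fold lower were Itga1 and Itga8, with log2 ratios of −1.01 and −1.08, where 10.6% of all genes were lower. The adult sham library was lower in general, with a median log2 ratio of −0.30 over the 10891 genes. After median-of-ratios scaling, 6 members were higher, with Itga5 added at 1.37, and none was lower. With 0.1 FPKM added in place of 1, 6 members were lower, namely Itga1, Itga8, Itga2, Itga4, Itgal and Itgb8. The shares over all genes were not calculated for that scaling or that added value. The 4 leukocyte integrins had a median log2 ratio of −0.23 between the shams as deposited and −0.02 and 0.05 after median-of-ratios scaling and quantile normalization, and none of them passed 2-fold under these scalings. Itgal, at 1.54 FPKM in the young and 0.570 FPKM in the adult sham library, was 2.71-fold lower in FPKM alone, with log2 ratios of −0.70 with 1 FPKM added and −1.295 with 0.1 FPKM added. All 6 B cell markers were at least 2-fold lower in the adult sham, with sums of 58.9 and 12.2 FPKM. Of 8 macrophage markers, 4 were at least 2-fold higher there and 0 lower, with sums of 179 and 287 FPKM. The part of these cells in the values of Itgal and the other leukocyte integrins was not tested.

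In injured cartilage 2 of 29 members, Itga11 at a log2 ratio of 1.01 and Itgb5 at 1.10, were at least 2-fold higher in adult than in young mice (6.90%, against 1.8% of all genes). None was at least 2-fold lower (3.09% of all genes). Itga3 passed as well under the other three scalings, at 1.02 after median-of-ratios scaling, and Itga7 passed on the TPM scale and after quantile normalization, at 1.21 and 1.04. The median log2 ratio of the leukocyte set was −0.39 and that of the matrix set 0.22. Itgam, at 31.3 FPKM in the young and 19.4 FPKM in the adult library, had a log2 ratio of −0.66.

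**Figure D4:**
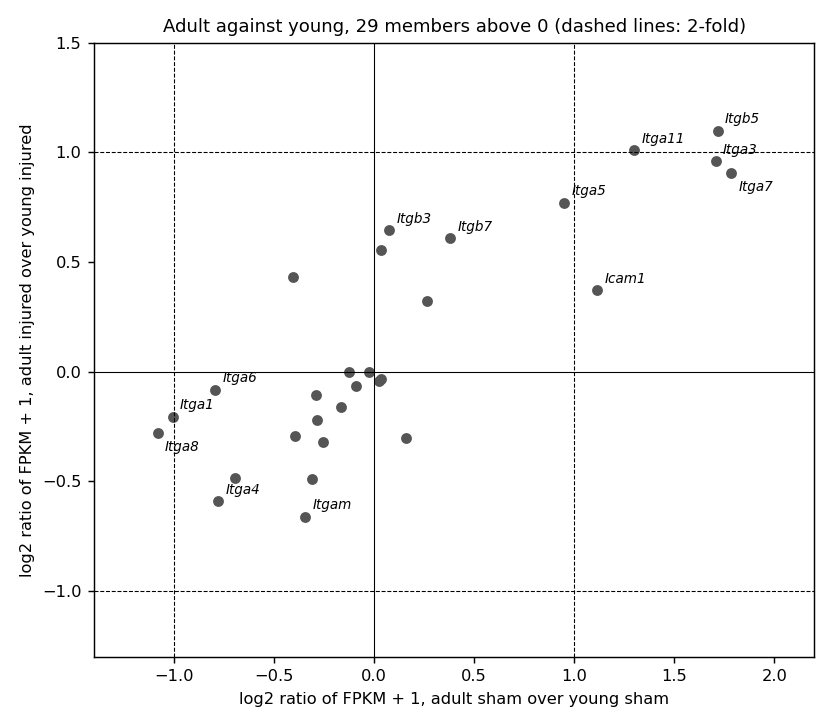
Log2 ratios of FPKM + 1 of adult over young cartilage for the 29 members above 0, with sham libraries on the x axis and injured libraries on the y axis, 1 point per gene and dashed lines at 2-fold. Itgb5 and Itga11 lie beyond 2-fold on both axes, at 1.72 and 1.10 for Itgb5, and Icam1 beyond it only between the shams.

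Proteins that switch integrins on or link them to actin were examined as a list of 30 genes. Of the 29 above 0, 4 passed 2-fold upward at the young and 6 at the adult age, with medians of 0.15 and 0.48, and none passed it downward. This was 13.8% and 20.7% of the list, against 4.57% and 6.9% of all genes. Fermt3, the kindlin of blood cells, was at 4.96 and 16.8 FPKM in young and 4.66 and 16.3 FPKM in adult sham and injured cartilage, log2 ratios of 1.58 and 1.61. Skap2, an adaptor of integrin signalling in myeloid cells, had log2 ratios of 2.03 and 1.43. Apbb1ip, the adaptor RIAM that brings talin to integrins, had 1.29 and 1.69. Ptk2b, the focal adhesion kinase relative found in blood cells, had 1.02 and 1.60. These 4 passed 2-fold at both ages. In adult mice Pxn, the focal adhesion adaptor paxillin, passed too, at a log2 ratio of 1.505, and so did Parvb, a parvin that links integrins to actin, at 1.28. In young mice Pxn was at 0.15 and Parvb at 0.81, and these 2 genes were named after their values were seen. The other 23 genes stayed within 2-fold in adult mice.

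Of 24 matrix ligands of integrins above 0, 6 were at least 2-fold higher and 1 lower after injury in young mice, and 4 were higher and 1 lower in adult mice, with medians of 0.04 and 0.03. The shares that were higher, 25% and 16.7%, stand beside 4.57% and 6.9% of all genes, and the shares of all genes that were lower were 1.27% and 1.46%. Fn1, the fibronectin bound by α5β1, was at 226 and 1869 FPKM in young and 442 and 3803 FPKM in adult sham and injured cartilage. Its log2 ratios were 3.04 and 3.10, while those of its receptor subunit Itga5 were 0.27 and 0.09. Spp1, which encodes osteopontin, was at 397 and 2338 FPKM in young and 2722 and 4953 FPKM in the adult pair, log2 ratios of 2.56 and 0.86. Lamb1, a laminin chain, rose by log2 ratios of 1.37 and 2.19. Thbs1, the adhesive matrix protein thrombospondin, fell, from 412 to 119.9 FPKM in young cartilage, and in adult cartilage from 470.0 to 55.8 FPKM. Its log2 ratios were −1.77 and −3.05.

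Other genes of leukocyte adhesion rose in part. Of 13 genes, 5 passed 2-fold upward at the young age and 6 at the adult age and none downward, with medians of 0.49 and 0.99. The shares of 38.5% and 46.2% stand beside the same 4.57% and 6.9%. Cd44, the hyaluronan receptor, was at 5.51 and 34.0 FPKM in young and 5.43 and 28.99 FPKM in adult sham and injured cartilage. Selplg, the selectin ligand of leukocytes, had a log2 ratio of 1.98 at both ages. Pecam1, an adhesion molecule of endothelium and leukocytes, had 2.05 and 1.06.

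**Figure D5:**
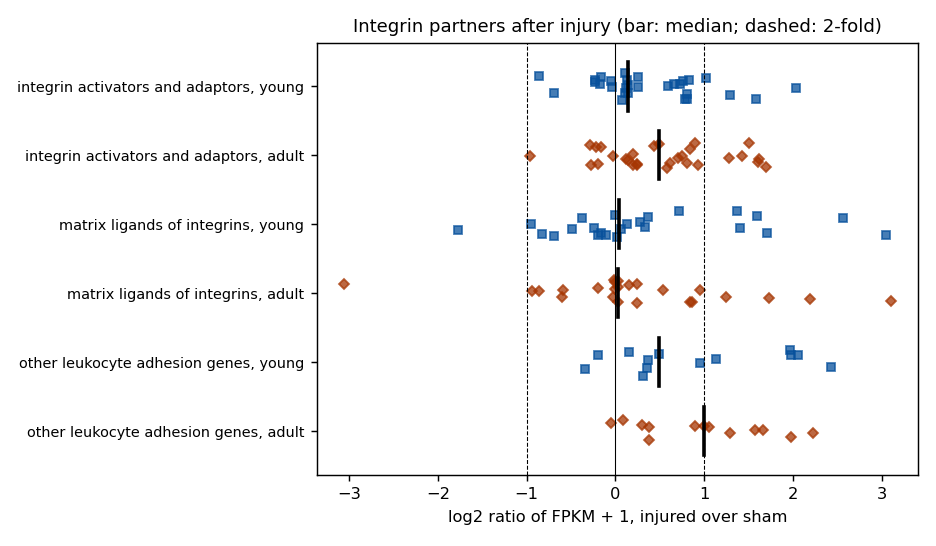
Log2 ratios of FPKM + 1 of injured over sham cartilage for the genes above 0 in 3 lists of integrin partners, 1 point per gene, with squares for young and diamonds for adult mice, a bar at each median and dashed lines at 2-fold. Fn1 lies at 3.04 and 3.10 and Thbs1 at −1.77 and −3.05 among the matrix ligands, and the medians lie between 0.03 and 0.99.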

How the data were processed

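RNA of cartilage was sequenced in 4 libraries, each made from 1 pool of mice, with a kit for mRNA that keeps the strand. The authors deposited FPKM for each gene on mm10, already divided by transcript length and by the mapped fragments of the library. The submitters' processing notes name HISAT2 2.1.0, StringTie 1.3.4d, STAR and SAMtools without their roles. Columns were matched to samples by name.

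For 4 comparisons, FPKM + 1 was turned into log2 ratios without further scaling, over the 18181 genes above 0 in at least 1 library, and 2-fold was the threshold. Groups hold 1 library, so no test was run. Whole fragments were not recovered, so no counting interval is given. The members and lists were chosen with earlier results of these data known. All 30 members were named, and of each partner list the 3 genes with the largest log2 ratio at each age and a mean of at least 1 FPKM. A gene that this rule named among the leukocyte adhesion genes is not reported here. Promoters came from RefSeq (GRCm38.p6), gene positions from a RefSeq table of the same assembly, and shared 31-base words from GENCODE transcripts. Protein sequences were not used here. The code was checked on abundant genes whose values were changed by known factors without noise. That check does not test how reliable the reported calls are. Python 3.11.15, numpy 2.4.6, pandas 2.3.3, scipy 1.17.1 and matplotlib 3.10.9 were used.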

Additional observations from a re-analysis of the deposited data

Results flagged for a closer look

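For 4 members the injured library was on opposite sides of its sham in young and adult mice under each of the 4 scalings used (as deposited, TPM scale, median of ratios and quantile). The log2 ratio of Itga1 was −0.28 at the young and 0.53 at the adult age, and that of Itgav −0.30 and 0.54. Itga3 had 0.18 and −0.57, and Itga7 had 0.46 and −0.41. All 8 values were under 2-fold, each from 1 pair of libraries, and the difference between the ages was not tested.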

How the results depend on the processing

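Of 156 recalculated counts, medians and ratios, 118 stayed within 1.5-fold of the reported value and 38 did not, and no called value changed sign. No paired analysis was possible because each group has 1 library and the labels give no replicate numbers, and for the same reason no library could be left out. With 0.1 FPKM added the leukocyte median was 2.80 in young and 2.58 in adult mice and exceeded the matrix median by 2.93 and 2.42. With 5 FPKM the medians were 1.29 and 1.10 and the excess 1.35 and 0.95. With 5 FPKM, 2 members were higher after injury at each age and 0 lower in young, 1 was higher and 0 lower in adult than young sham, and 1 was higher in adult injured cartilage. With 0.1 FPKM, 6 were lower in adult sham, and 4 were higher and 1 lower in adult injured than in young injured cartilage. Between the injured libraries 4 members were higher on the TPM scale and after quantile normalization. After median-of-ratios scaling 0 were lower in young injured cartilage and in adult sham cartilage, and after quantile normalization 0 in adult sham. At 1.5-fold, 11 were higher in young and 1 lower in adult injured cartilage, 5 lower in adult sham, and 7 higher and 2 lower between the injured libraries. At 3-fold, 3 were higher and 0 lower in young, 4 higher in adult, 3 higher and 0 lower in adult sham, and 0 higher between the injured libraries. With broader sets of 12 matrix and 7 leukocyte integrins the leukocyte median was 1.12 in young and 1.33 in adult mice, with an excess of 1.00 and 1.17, and the ratio of sums in adult sham was 0.0326. The filter at 1 FPKM removed Itgad, Itgae, Itgb4, Itgb6 and Itgb8 besides Madcam1 and changed no count. Shares over all genes were not recalculated under any of these settings, so that the counts cannot be set against them. Values under 1 FPKM can rest on few fragments, about 17 for Itgad in young sham cartilage if 1 step is 1 fragment. The longer Itga2, also under 1 FPKM there, had about 104.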
